A study of Mus musculus with 2 samples.

Results

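Called nucleosomes were examined in 2 large clusters of olfactory receptor genes of the mouse, on chromosome 2 from 85.2 to 90 Mb and on chromosome 9 from 38 to 39.8 Mb (build mm9). The members are the nucleosomes listed by the authors whose midpoint lies within these limits. The limits were set by position, but the regions were chosen with earlier results of these data known. The ethanol library held 795 members among 1300009 called nucleosomes (0.0612% of its list), and the tamoxifen library 885 among 1424844 (0.0621%). Both libraries are MNase-seq of embryonic stem (ES) cells with genotype Brg1fl/fl and an Actin-CreER transgene, in which the actin promoter drives a Cre recombinase that tamoxifen activates. The floxed gene codes for the ATPase subunit of esBAF, a complex of ES cells that slides and evicts nucleosomes. Cells received 0.8 µM tamoxifen, or ethanol as the vehicle, for 24 hours and were harvested after another 48 hours in fresh medium. The labels name neither a clone of these cells nor a measurement of the remaining Brg1. The series asks whether esBAF promotes the spacing of nucleosomes beside pluripotency factor binding sites, and the olfactory receptor clusters were not the subject of that question. With 1 library per group, no difference between treatments has a replicate check and no test was made. Intervals are 95% and cover counting error only.

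Olfactory receptors are odorant-binding G protein-coupled receptors of the sensory neurons of the nose. Their genes form one of the largest gene families of mammals and lie side by side in clusters on many chromosomes. A mature olfactory neuron transcribes a single receptor gene from a single allele, while the other members stay silent, covered in these neurons by heterochromatin marks such as H3K9me3. In other cell types, ES cells included, the clusters are regarded as transcriptionally inactive. They are known to be AT-rich and rich in LINE repeats, and their members resemble each other in sequence.

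Gene order was read from RefSeq on build GRCm38.p6, which is not the build of the nucleosome lists, so the limits of the clusters could not be checked gene by gene on mm9. On chromosome 2 the longest uninterrupted run of protein-coding olfactory receptor genes held 123 of the chromosome's 287, from Olfr153 to Olfr1274, between Pramel6, a gene of the PRAME-like family, and Ptprj, a receptor-type tyrosine phosphatase. On chromosome 9 the longest run held 40 of 130, from Olfr160 to Olfr919, between Panx3, a pannexin channel gene, and Vwa5a. The 250 bases before the RefSeq start of the first and the last gene of each run are shown because base composition was not used to choose the members. The runs are gene sets in their own right: they need not coincide with the limits on mm9, and genes at their ends, Olfr1274 and Olfr160 among them, may lie in the flanks. On GRCm38.p6 the chromosome 2 run begins near 87531785 and the chromosome 9 run ends near 38698626. Unless the builds differ by much, each run thus covers only a part of its cluster, and Pramel6 and Vwa5a may lie inside the limits. Ptprj is shown for contrast and was picked after the composition had been seen. Sequences are from RefSeq on GRCm38.p6, read along the gene, with CpG dinucleotides in capitals. They lie at chr2:87531785-87532034, plus strand (Olfr153), chr2:90400390-90400639, plus strand (Olfr1274), chr9:37712281-37712530, minus strand (Olfr160), chr9:38698377-38698626, minus strand (Olfr919) and chr2:90580596-90580845, minus strand (Ptprj).
Olfr153: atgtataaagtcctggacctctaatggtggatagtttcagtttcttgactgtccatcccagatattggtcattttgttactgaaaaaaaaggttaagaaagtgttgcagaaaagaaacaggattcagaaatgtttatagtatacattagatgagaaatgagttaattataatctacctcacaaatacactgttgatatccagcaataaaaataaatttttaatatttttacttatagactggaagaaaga
Olfr1274: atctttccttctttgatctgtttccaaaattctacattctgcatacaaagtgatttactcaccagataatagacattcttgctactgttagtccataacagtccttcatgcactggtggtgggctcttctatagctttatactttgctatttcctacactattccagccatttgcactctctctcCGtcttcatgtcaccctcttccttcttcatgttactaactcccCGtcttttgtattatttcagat
Olfr160: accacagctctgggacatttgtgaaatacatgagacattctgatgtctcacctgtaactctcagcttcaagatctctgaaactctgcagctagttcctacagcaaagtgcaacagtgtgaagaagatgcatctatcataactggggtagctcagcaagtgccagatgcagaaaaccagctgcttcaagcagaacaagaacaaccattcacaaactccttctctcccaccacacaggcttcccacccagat
Olfr919: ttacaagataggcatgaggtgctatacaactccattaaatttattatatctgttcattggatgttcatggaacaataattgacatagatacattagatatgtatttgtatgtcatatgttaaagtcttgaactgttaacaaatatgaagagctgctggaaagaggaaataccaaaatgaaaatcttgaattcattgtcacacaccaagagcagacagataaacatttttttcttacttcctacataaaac
Ptprj: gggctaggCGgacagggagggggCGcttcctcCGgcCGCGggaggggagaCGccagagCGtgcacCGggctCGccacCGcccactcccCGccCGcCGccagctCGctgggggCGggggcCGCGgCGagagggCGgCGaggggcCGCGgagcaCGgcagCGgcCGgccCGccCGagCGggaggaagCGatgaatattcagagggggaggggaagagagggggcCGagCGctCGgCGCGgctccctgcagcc

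The bases before the olfactory receptor genes were poor in G and C and in CpG. Olfr153, Olfr160 and Olfr919 held 0 CpG dinucleotides and Olfr1274 held 2, against 34 before Ptprj. The G+C content was 29.6% for Olfr153, 38.8% for Olfr1274, 46.4% for Olfr160 and 30.4% for Olfr919, against 79.2% for Ptprj. Pramel6, the neighbour on the other side of the chromosome 2 run, had 42.0% and 2 CpG. Across the chromosome 2 run, 112 of 123 genes had an entry, with a median G+C content of 31.0% (range 15.2 to 46.8%). In the chromosome 9 run 33 of 40 genes had one, with a median of 34.8% (30.4 to 46.4%). Over all 27025 genes with an entry the median was 52.0%. No CpG at all was found in 45.5% of the entries of the chromosome 2 run and 42.4% of those of the chromosome 9 run, against 8.27% of all entries. In 78 of the 112 and 20 of the 33 entries the RefSeq start is itself an ATG, so these windows need not hold the promoter from which the gene is transcribed.

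Both clusters were deserts of called nucleosomes in both libraries. On chromosome 2 the cluster held 522 calls in the ethanol library, that is 108.8 per Mb (Poisson interval 99.6 to 118.5), and 577 in the tamoxifen library, 120.2 per Mb (110.6 to 130.4). In its flanks, 2 Mb on each side, the ethanol library had 549.8 calls per Mb (527.0 to 573.2) and the tamoxifen library 589.8 (566.2 to 614.0). The flanks of the chromosome 2 cluster were thus 5.06-fold denser than the cluster with ethanol (exact interval 4.59 to 5.57) and 4.91-fold denser with tamoxifen (4.48 to 5.38).

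The cluster on chromosome 9 was somewhat fuller. It held 273 ethanol calls, 151.7 per Mb (134.2 to 170.8), and 308 tamoxifen calls, 171.1 per Mb (152.5 to 191.3). The flanks there had 532.8 ethanol and 589.5 tamoxifen calls per Mb, 3.51-fold (3.095 to 3.999) and 3.45-fold (3.06 to 3.89) the density of the cluster. Over all autosomes the densities were 521.7 and 571.6 calls per Mb, close to those of the flanks. Called nucleosomes covered 1.25% of the chromosome 2 cluster with ethanol and 1.40% with tamoxifen, 1.77% and 1.96% of the chromosome 9 cluster, and 6.12% and 6.65% of all flanks. A nucleosome missing from a list is not an absent nucleosome, since only calls that passed the authors' cutoffs are listed, and how many reads could be placed within the repeats of these clusters was not tested.

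**Figure D1:**
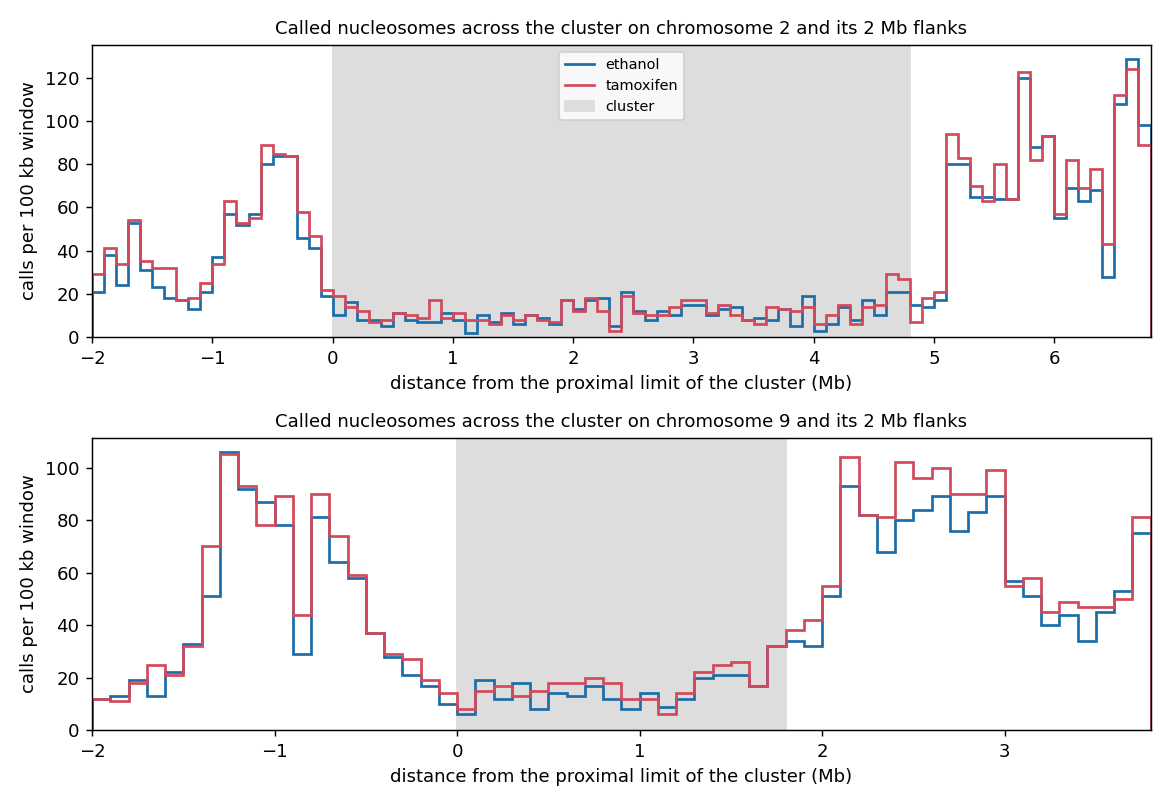
Called nucleosomes per window of 100 kb (vertical axis) against the distance in Mb from the proximal limit of the cluster on chromosome 2 (top) and chromosome 9 (bottom), with ethanol in blue, tamoxifen in red and the cluster shaded. No window of the shaded stretches holds more than 32 calls in either library, and both libraries follow the same outline.

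The edges of the deserts did not fall exactly on the limits used. On chromosome 2 the first 3 windows of 100 kb beyond the distal limit held 15, 14 and 17 ethanol calls and 7, 18 and 21 tamoxifen calls, as few as inside the cluster. The next window, from 90300001 to 90400000, held 80 and 94. The distal edge was therefore a step within 1 window. At the proximal limit the last window outside held 19 ethanol and 22 tamoxifen calls, and the one before it 41 and 47. The chromosome 9 cluster was entered gradually on its proximal side, where the last 3 windows before the limit held 21, 17 and 10 ethanol calls and 27, 19 and 14 tamoxifen calls. On its distal side calls increased over several windows, from 34 and 38 in the first to 93 and 104 in the fourth. The proximal flank of each cluster was sparser than the distal one, with 408.0 against 691.5 ethanol calls per Mb on chromosome 2 and 435.5 against 630.0 on chromosome 9.

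Inside the clusters no window was as full as the typical window elsewhere. The 48 windows of 100 kb on chromosome 2 held 2 to 21 ethanol calls, with a median of 10.0, and 3 to 29 tamoxifen calls, with a median of 11. The 18 windows on chromosome 9 held 6 to 32 ethanol calls, median 14, and 6 to 32 tamoxifen calls, median 17. Across all other autosomal windows the medians were 41.0 and 47.0. Of those windows, 8.91% had fewer calls in both lists together than the median window of the chromosome 2 cluster, and 17.6% fewer than that of chromosome 9. By their median window the clusters were thus sparse but not at the extreme of the genome. Stretches elsewhere as long as the clusters were not compared.

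The emptiest windows of the chromosome 2 cluster were 87500001 to 87600000 with 5 ethanol and 3 tamoxifen calls, 89200001 to 89300000 with 3 and 6, and 86300001 to 86400000 with 2 and 8. Its fullest were the last ones before the distal limit, 89800001 to 89900000 with 21 and 29 calls and 89900001 to 90000000 with 21 and 27, followed by 87600001 to 87700000 with 21 and 19. An empty window and a full one thus lay side by side near 87600000. The emptiest windows of chromosome 9 were 38000001 to 38100000 with 6 and 8 calls, 39100001 to 39200000 with 9 and 6, and 38900001 to 39000000 with 8 and 12. The fullest were the last one before the distal limit, from 39700001, with 32 calls in each library, 39500001 to 39600000 with 21 and 26, and 39400001 to 39500000 with 21 and 25, which is the distal end of the cluster. Windows rich in ethanol calls tended to be rich in tamoxifen calls, with Pearson's r of 0.74 and Spearman's rho of 0.70 across the 48 windows of chromosome 2 and 0.84 and 0.73 across the 18 of chromosome 9. These are descriptions across sites of the same 2 libraries, which share base composition and the caller.

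Long stretches had no call in either library. On chromosome 2, 34 stretches of at least 20 kb without a call summed to 0.952 Mb, 19.8% of the cluster, against 4 stretches and 2.59% of its flanks. On chromosome 9 there were 13 such stretches, 17.8% of the cluster, against 1 stretch and 0.566% of its flanks. The longest ran for 55120 bp between the centres 87554491 and 87609611 on chromosome 2. That of chromosome 9 ran for 39450 bp from 39100331 to 39139781. The longest stretch of the chromosome 2 flanks, 35655 bp from 90165906 to 90201561, lay in the sparse windows just beyond the distal limit. The flanks were also denser in calls, and no reference of like density was searched for such stretches.

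Relative to the library totals, the number of calls in the clusters differed between the libraries by no more than counting error. Unscaled, tamoxifen calls were 1.113 times as many as ethanol calls in both clusters together (1.010 to 1.227), against 1.096 times over the autosomes. Divided by the library totals, the tamoxifen over ethanol ratio was 1.009 (exact interval 0.894 to 1.137) on chromosome 2 and 1.029 (0.872 to 1.216) on chromosome 9. The flanks gave 0.979 (0.923 to 1.038) and 1.010 (0.952 to 1.071). Set against its own flanks, the ratio of the cluster was 1.030 (0.901 to 1.178) on chromosome 2 and 1.020 (0.854 to 1.217) on chromosome 9, so a shift of over 1.22-fold in either cluster lies outside the counting interval. The intervals treat calls as independent between libraries, which they are not, as the libraries share positions.

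Other sparse parts of the genome were a second reference, chosen after the data had been seen. These were the 5211 autosomal windows of 100 kb outside the clusters with 14 to 38 calls in both lists together, the range between the 10th and 90th percentile of the cluster windows. They averaged 26.19 calls per window, against 25.45 in the clusters. Their ratio of tamoxifen to ethanol calls was 1.089 (1.077 to 1.101) after division by the library totals, while both clusters together gave 1.016 (0.922 to 1.119). The clusters relative to these windows stood at 0.933 (0.846 to 1.028), an interval that includes 1. Counting error thus allows for the 2 clusters both the ratio of the whole lists and that of the other sparse windows.

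**Figure D2:**
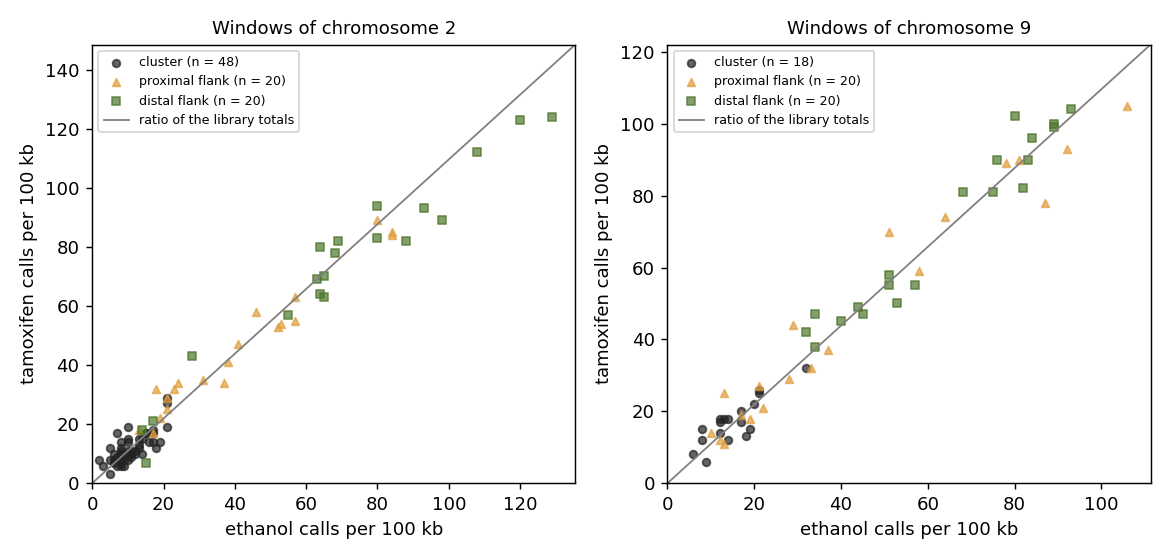
Tamoxifen calls (vertical) against ethanol calls (horizontal) per window of 100 kb on chromosome 2 (left) and chromosome 9 (right), with cluster windows as black circles, proximal flank as orange triangles and distal flank as green squares. The grey line is the ratio of the library totals, and the cluster windows sit at its lower end on both sides of it.

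Single windows scattered around that ratio. Of 64 cluster windows with at least 10 calls, 7 (10.9%) exceeded the library ratio by over 1.5-fold after tamoxifen and 5 (7.81%) fell short of it by as much, while 2 windows had too few calls. Over all autosomes 4.66% of 23863 windows were that much higher and 1.40% that much lower. Among the 5211 other sparse windows the shares were 14.4% and 4.70%. The count of higher windows in the clusters thus lay between the shares of all windows and of sparse windows, while the share of lower ones, which rests on 5 windows, was above both. None of the 12 windows had an exact interval that excluded 1, and with the tamoxifen list cut to the size of the ethanol list the numbers turned to 4 higher and 8 lower.

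The largest ratio belonged to 86300001 to 86400000 on chromosome 2, with 2 ethanol and 8 tamoxifen calls (ratio 3.65, interval 0.728 to 35.3). It was followed by 86000001 to 86100000 with 7 and 17 (2.22, 0.873 to 6.32) and 89000001 to 89100000 with 5 and 12 (2.19, 0.718 to 7.93). The other higher windows of chromosome 2 began at 85200001 with 10 and 19 calls, 88800001 with 8 and 14, and 89300001 with 6 and 10. Lower windows began at 87400001 with 18 and 12 calls, 88500001 with 14 and 10, and 88700001 with 9 and 6. On chromosome 9 the window at 38400001 was higher, with 8 and 15 calls, and those at 38300001, with 18 and 13, and 39100001, with 9 and 6, were lower. A higher and a lower window adjoined each other at 38400000, as they did at 88800000 on chromosome 2.

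The nucleosomes called in the clusters had lower median scores than those of the flanks. The score is the authors' value for each call, defined nowhere in the sources used here, and was read within a list only. The list medians were 86.0 in both libraries. On chromosome 2 the cluster calls had a median of 74.35 with ethanol and 76.7 with tamoxifen, against 81.4 and 83.6 in the flanks. Medians on chromosome 9 were 76.7 and 79.5 in the cluster and 82.7 in the flanks of both libraries. Of the ethanol calls in both clusters, 38.49% (Wilson interval 35.17 to 41.92%) reached the list median, against 46.44% (44.96 to 47.93%) in all flanks and 50.9% of the whole list. With tamoxifen the shares were 42.49% (39.27 to 45.77%), 47.76% (46.34 to 49.19%) and 50.6%. The odds of reaching the median were 0.722 times those of the flanks with ethanol (exact interval 0.616 to 0.845) and 0.808 times with tamoxifen (0.697 to 0.936).

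Against the other sparse windows the picture was split. There, 37.55% of ethanol and 37.47% of tamoxifen calls reached the median. The odds in the clusters were 1.041 times that with ethanol (0.899 to 1.204) and 1.233 times with tamoxifen (1.075 to 1.413). By cluster, 41.94% (37.98 to 46.01%) of tamoxifen calls and 36.21% (32.20 to 40.42%) of ethanol calls reached the median of their list on chromosome 2. On chromosome 9 the shares were 43.51% (38.08 to 49.09%) and 42.86% (37.13 to 48.79%). The intervals of the 2 libraries overlapped in both clusters. In the flanks of chromosome 2 the shares were 48.75% (46.74 to 50.77%) and 45.38% (43.31 to 47.47%), with intervals above those of the cluster. In the flanks of chromosome 9 they were 46.78% (44.77 to 48.79%) and 47.54% (45.42 to 49.66%), with intervals that overlapped those of the cluster. Widths differed little, with a mean of 115.2 bp for ethanol and 115.5 bp for tamoxifen calls in the clusters, 113.0 and 112.9 bp in the flanks, and 112.3 bp over the autosomes in both libraries.

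A smaller part of the nucleosomes was found at the same place in both libraries in the clusters than in the flanks. A partner is here a call of the other library with its centre within 20 bp. Partners were found for 173 of 522 ethanol calls on chromosome 2 (33.14%, Wilson interval 29.24 to 37.29%) and 99 of 273 on chromosome 9 (36.26%, 30.79 to 42.12%), against 44.4% of all ethanol calls. In the flanks the shares were 43.02% (40.96 to 45.10%) and 42.00% (39.92 to 44.11%). Of the tamoxifen calls, 29.98% (26.39 to 33.84%) on chromosome 2 and 32.14% (27.17 to 37.55%) on chromosome 9 had a partner, against 40.10% and 37.96% in the flanks and 40.5% of the whole list. Over both clusters the odds of a partner were 0.703 times those of the flanks for ethanol calls (exact interval 0.598 to 0.826) and 0.693 times for tamoxifen calls (0.592 to 0.811).

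As a measure of what call density alone gives, the calls were displaced. When the ethanol calls of both clusters were displaced by 1000 to 10000 bp in 10 steps, partners turned up for 0 to 1.13% of them, and for 3.05 to 3.60% in the flanks. In place, the ethanol shares were 34.21% in both clusters and 42.52% in the flanks. In the other sparse windows 38.27% (37.89 to 38.65%) of ethanol and 32.06% (31.72 to 32.40%) of tamoxifen calls had a partner. The odds in the clusters relative to those windows were 0.839 (0.721 to 0.974) for ethanol and 0.940 (0.812 to 1.087) for tamoxifen calls. The other sparse windows thus also had fewer shared positions than the flanks. The interval of the clusters relative to them excluded 1 for ethanol calls, by a small margin, and included it for tamoxifen calls. No second ethanol library was analysed here, so the share that untreated cultures would reach is unknown.

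**Figure D3:**
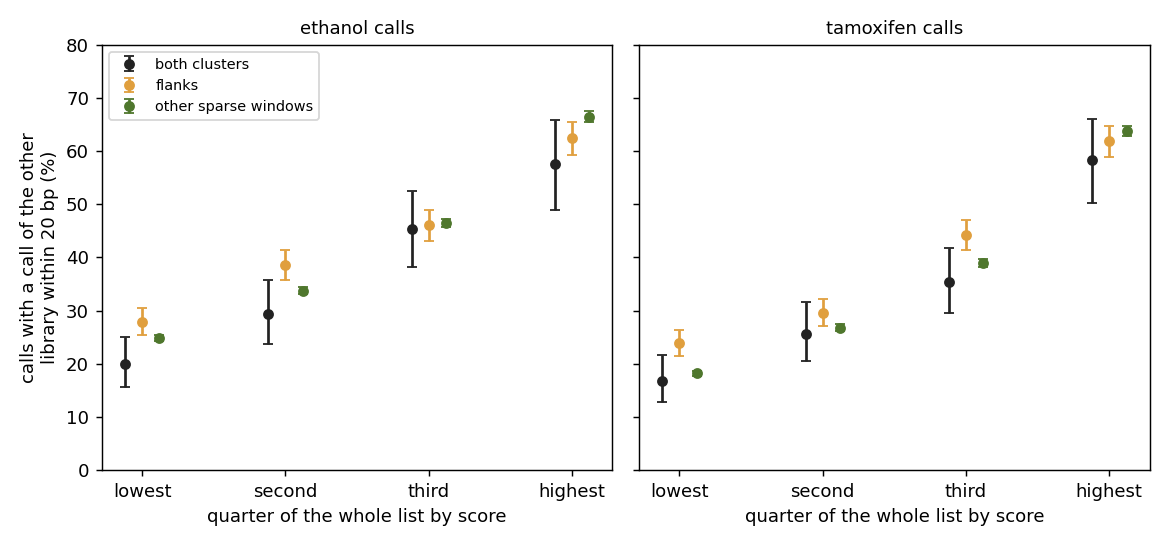
Share of calls with a call of the other library within 20 bp (vertical axis, %, Wilson 95% intervals) in 4 classes of score cut at the quartiles of each whole list, for ethanol calls (left) and tamoxifen calls (right). In the clusters (black) the share climbs from 19.93% to 57.60% for ethanol and from 16.85% to 58.33% for tamoxifen calls, a path that the flanks (orange) and other sparse windows (green) follow too.

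Position sharing depended strongly on the score of the nucleosome. In the lowest of 4 classes by score, 54 of 271 ethanol calls of the clusters had a partner (19.93%, 15.61 to 25.09%), against 27.81% (25.34 to 30.42%) in the flanks. In the highest class it was 72 of 125 (57.60%, 48.84 to 65.91%), against 62.39% (59.20 to 65.48%). In the class below the highest the values were 45.30% and 46.04%. With tamoxifen the share was 16.85% (12.91 to 21.68%) in the lowest class and 58.33% (50.17 to 66.07%) in the highest, against 23.83% and 61.86% in the flanks. The clusters were below the flanks in each of the 4 classes for both libraries. For ethanol calls the intervals of clusters and flanks did not overlap in the 2 lower classes, while for tamoxifen calls they overlapped in each class. From the lowest to the highest class, the other sparse windows had 24.80, 33.77, 46.51 and 66.46% for ethanol calls. For tamoxifen calls they had 18.23, 26.83, 38.98 and 63.81%. The clusters were below these windows in each class too, with intervals that overlapped in each. Low scores were also more common in the clusters than in the flanks, since 34.1% of the ethanol calls of the clusters but 27.6% of those of the flanks fell in the lowest class.

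The nucleosomes with the highest scores in the clusters mostly had a counterpart at the same place in the other library, as did high-scoring calls over all autosomes. On chromosome 2 the call with the highest score was the same in both libraries, from 85735391 to 85735481 with ethanol (score 494.8) and from 85735401 to 85735481 with tamoxifen (695.1), with centres 5 bp apart. An ethanol call from 87659661 to 87659741 (462.1) had a tamoxifen call at the identical centre (312.1). A call at 85337641 to 85337741 with ethanol (379.2) and to 85337761 with tamoxifen (533.3) was also among the 3 highest of each list. The tamoxifen call from 88455871 to 88455961 (423.4) had an ethanol partner 5 bp away with a score of 248.0. Among the 20 calls with the highest scores on chromosome 2, 17 had a partner within 20 bp in each library.

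On chromosome 9 a small group of strong calls near the distal limit stood out. The ethanol library had 3 calls there, from 39746531 to 39746641 (score 581.2), from 39746731 to 39746821 (336.3), and another centred on 39746951 (312.1), spaced 182.5 bp on average. The tamoxifen library had 2, from 39746541 to 39746641 (446.8) and a wide one of 180 bp from 39746911 to 39747091 (441.1). The first was shared within 5 bp, the last was 50 bp from its ethanol counterpart, and the middle ethanol call had no tamoxifen call nearer than 185 bp. The next strongest calls, an ethanol call from 39451521 to 39451611 (336.3) and a tamoxifen call from 38635801 to 38635901 (398.2), each had a partner 5 bp away, with scores of 159.3 and 246.4. Of the 20 strongest calls on chromosome 9, 12 with ethanol and 11 with tamoxifen had a partner within 20 bp. Among the 20 strongest of both clusters together it was 13 and 16. Over all autosomes 63.97% of ethanol and 62.74% of tamoxifen calls in the highest of the 4 score classes, a wider class, had one.

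About as many calls lay far from any call of the other library as were shared or close to one. In the clusters 374 of 795 ethanol calls (47.04%, 43.60 to 50.52%) and 464 of 885 tamoxifen calls (52.43%, 49.14 to 55.70%) were over 100 bp from the other library's nearest call. In the flanks the shares were 37.14% and 42.10%, in the other sparse windows 46.83% and 55.43%, and over all autosomes 34.37% and 40.04%. Most of these calls came alone or in short runs, which were counted in the clusters only. Of 173 ethanol runs on chromosome 2 without an intervening tamoxifen call, 114 were single calls, and of 196 tamoxifen runs 124 were. The longest ethanol run there had 5 calls between 87920006 and 87957371, with scores of 56.1 to 174.1, inside a gap of 43385 bp in the tamoxifen list. The longest tamoxifen runs also had 5 calls, and the first of 2 such runs reached from 86333466 to 86366251, with scores of 53.1 to 99.2, inside an ethanol gap of 54760 bp. The longest tamoxifen run of chromosome 9 had 5 calls between 39202101 and 39209296 (61.7 to 108.7), and ethanol runs reached no more than 3 calls, 9 of them, the first from 38113156 to 38121351. On chromosome 2 the longest runs were thus of the same number of calls in both directions.

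Neighbouring nucleosomes were rarely called side by side in the clusters. Successive ethanol calls on chromosome 2 were a median of 5735 bp apart and tamoxifen calls 5378 bp, while chromosome 9 gave 3382 and 3620 bp and all flanks gave 990.0 and 930.0 bp. Distances of 140 to 400 bp, whose share is called the neighbour share, reach to about 2 nucleosome repeats and so need not join adjacent nucleosomes. They made up 10.09% (Wilson interval 8.18 to 12.38%) of the distances with ethanol and 9.06% (7.34 to 11.13%) with tamoxifen, 80 in each library. In the flanks they made up 22.56% and 24.00%, and in the other sparse windows 8.81% and 8.66%. In the sparse windows distances across a window border were not counted, which leaves 57013 for 62224 ethanol calls and 69061 for 74272 tamoxifen calls. Long distances cross a border more often, so these 2 shares are not strictly comparable with those of the clusters. By cluster the shares were 8.06% and 7.47% on chromosome 2 and 13.97% and 12.05% on chromosome 9. The libraries thus differed by less than the counting intervals.

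Pairs of calls 140 to 400 bp apart outnumbered pairs in more distant intervals. In both clusters together 82 pairs of ethanol calls lay 140 to 400 bp apart, whereas equally wide intervals held 45 pairs at 640 to 900 bp, 30 at 1140 to 1400 bp and 39 at 20140 to 20400 bp. The tamoxifen library had 86, 47, 27 and 41. Near pairs were 1.82 times as many as pairs 640 to 900 bp apart with ethanol and 1.83 times with tamoxifen, against 1.20 and 1.22 in the flanks and 1.91 and 1.68 in the other sparse windows. Relative to pairs 1140 to 1400 bp apart the values were 2.73 and 3.19 in the clusters, 1.28 and 1.19 in the flanks and 2.35 and 2.01 in the other sparse windows. The clusters were thus above the flanks by both measures, while their order against the other sparse windows changed with the interval for ethanol calls, and none of these ratios was tested.

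**Figure D4:**
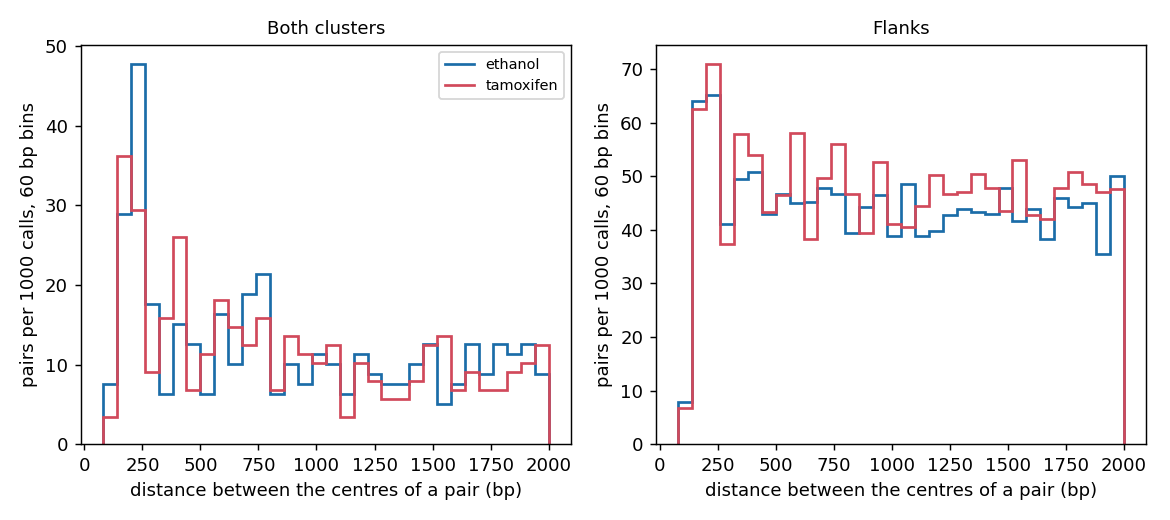
Pairs of calls per 1000 calls (vertical axis) by the distance between their centres in bins of 60 bp (horizontal axis), in both clusters (left) and all flanks (right), with ethanol in blue and tamoxifen in red. In the clusters most near pairs lie between 140 and 260 bp in both libraries, and beyond that each bin holds at most 23 pairs.

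For the regularity of the spacing, the clusters held too few pairs to rank the libraries firmly. The periodicity contrast sets pairs 350 to 410 bp apart, about 2 nucleosome repeats, against pairs 260 to 320 bp apart, between repeats. With ethanol there were 7 and 15 such pairs, a contrast of 0.467 (interval 0.190 to 1.145), and with tamoxifen 18 and 9, a contrast of 2.00 (0.899 to 4.45). The flanks gave 1.364 (1.129 to 1.647) and 1.695 (1.417 to 2.028), and the other sparse windows 1.255 (1.138 to 1.383) and 1.364 (1.250 to 1.489). The ratio of tamoxifen to ethanol was 4.29 (1.29 to 14.3) in the clusters and 1.243 (0.958 to 1.612) in the flanks. In the other sparse windows it was 1.087 (0.954 to 1.239), and over the autosomes 1.106 (1.091 to 1.121). The direction in the clusters was that of the autosomes, but the pairs number 22 and 27 in all. Calls at or above the median score gave 0.500 in both libraries, with an interval of 0.0916 to 2.73, too wide to give a direction.

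Regular runs were few. Runs of at least 3 calls with steps of 150 to 230 bp were looked for. Chromosome 2 had 0 in the ethanol list and 4 in the tamoxifen list, and chromosome 9 had 4 in each. Per 1000 calls both clusters had 5.03 (1.37 to 12.9) with ethanol and 9.04 (3.90 to 17.8) with tamoxifen, the flanks 12.7 and 14.4, and the other sparse windows 4.24 and 3.19. The longest, 4 tamoxifen calls spaced 191.7 bp between 38590741 and 38591316 on chromosome 9, had 3 ethanol calls in the same place. The 4 tamoxifen runs of chromosome 2 were centred between 87135126 and 87135536, where the ethanol list had 2 calls, between 87233946 and 87234296 with 3, between 87746666 and 87747101 with 2, and between 89891846 and 89892181 with 1. Ethanol calls were thus present at each of these runs.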

How the data were processed

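MNase-seq was done on 1 ethanol and 1 tamoxifen library. Per the labels' protocols, the mononucleosome band of a 12 U MNase digest of nuclei was sequenced. The title that reads Tax was taken as tamoxifen, the only other treatment named. Per the submitters' processing notes, Bowtie 0.12.9 aligned the reads and the build is mm9. Which caller and cutoffs were used, and what the score measures, is not given in the sources used here. Each deposited list gives a position and the authors' score for each nucleosome, with scores of 50.1 to 3250, starts and ends on a 10 bp grid and widths of 80 to 240 bp. Read depth is unknown. Positions are printed as the lists hold them.

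Each call was assigned by its centre. Calls were divided by region length, and library comparisons by the list totals. Intervals were exact Poisson or Clopper-Pearson for counts and ratios, conditional exact for ratios of odds, and Wilson for shares. The pair contrast used Poisson errors on a log scale. Alternatives were stronger calls, a tamoxifen list cut to the size of the ethanol list, trimmed or moved limits, other flanks, scalings, distance limits, windows and fold limits. Named windows, gaps, top calls and runs followed a rule (3 fullest and 3 emptiest windows per cluster, windows over 1.5-fold, the longest gap, the 3 highest scores, the longest single-library run). Runs of 3 calls, pair intervals and the sparse reference windows were added after the data had been seen. The regions and measures were chosen with earlier results of these data known. RefSeq (GRCm38.p6) gave gene order and sequences. The outermost start was used for genes with several. The functions were tested on simulated data. The software was scipy 1.17.1, pandas 2.3.3, numpy 2.4.6 and matplotlib 3.10.9 under Python 3.11.15.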

Additional observations from a re-analysis of the deposited data

How the results depend on the processing

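The density ratio of cluster over flank was below 1 under each alternative run for it. Of 112 recomputed values other than window counts, 77 stayed within the counting interval of the reported one, and of 14 recomputed window counts 4 stayed within 1.5 times it. These tallies do not measure robustness. Cutting the tamoxifen list cannot change the density, score, neighbour or contrast values of the ethanol list, which were counted as unchanged. Other score or partner limits change the quantity itself. Calls at or above their list's median score, the stronger calls, lowered the density ratio of cluster over flank on chromosome 2 from 0.1978 to 0.1578 in the ethanol list and from 0.2038 to 0.1754 in the tamoxifen list. Against the proximal flank alone the ratio was 0.2665 (ethanol) and 0.2651 (tamoxifen) on chromosome 2 and 0.3483 and 0.3614 on chromosome 9. Against the distal flank alone it was 0.1573, 0.1656, 0.2407 and 0.2425 in the same order. The tamoxifen over ethanol ratio of the chromosome 2 cluster was 1.176 among the stronger calls (interval 0.968 to 1.430). In the order ethanol and tamoxifen on chromosome 2, then on chromosome 9, the share reaching the upper quartile of the list was 13.03, 15.08, 20.88 and 18.51%. The flanks had 20.87, 23.53, 21.26 and 21.50%. Cutting the tamoxifen list removes its lowest scores and so raised the share at the median to 48.02% on chromosome 2 and 50.57% on chromosome 9. In the same order, partners within 10 bp were found for 22.80, 20.62, 24.18 and 21.43%, within 40 bp for 45.21, 40.90, 47.25 and 41.88%, and for the stronger calls in the whole other list 50.26, 43.80, 50.43 and 44.78%. With both lists limited to stronger calls the partner share was 38.10% for ethanol on chromosome 2, and the neighbour shares fell to 3.723, 4.979, 7.759 and 6.015%. The periodicity contrast with tamoxifen then went from 2.00 to 0.500, with an interval of 0.0916 to 2.73 that includes both 1 and the reported value. Windows over 1.5-fold, 7 higher and 5 lower, were 4 and 8 with the cut tamoxifen list, which turns their balance, 16 and 13 at 50 kb, 2 and 1 at 200 kb, 3 and 0 over 2-fold and 4 and 3 with at least 20 calls. Where the construction of an alternative does not give the cause, the cause was not tested. Read depth is unknown and pairs are few, which limits the spacing values. No paired analysis was possible because with 1 library a group there is a single pair.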
